A study of Mus musculus with 19 samples.

Results

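The genes described here are a listed set of 39 splicing factors, RNA-binding proteins and nuclear noncoding RNA genes, followed in the kidneys of fasted and ad libitum fed mice. Each gene was taken at its brightest probe set among those that name it alone, where brightness is the mean log2 level over all 19 arrays. Of the 39 genes, 35 had such a probe set, among 17097 genes and 45141 probe sets on the array. Srsf5, Srsf7, Hnrnpu and Rbm5 had none and were not analysed here. The 35 measured genes were covered by 98 single-gene probe sets, with 1 probe set for 12 genes and several for 23, and each of those 23 genes was also checked at its other probe sets.

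The samples were kidneys of male mice without renal surgery, with 1 array per mouse. Of the aged-overweight mice, F1 hybrids of FVB and C57BL/6J with an average age of 73 weeks and a weight of about 47 g, 5 were fasted for 3 days with free water and 5 were fed ad libitum. Of the young-lean mice, C57BL/6J aged 10 to 14 weeks that weighed 22 to 25 g, 4 were fasted in the same way and 5 were fed ad libitum. The RNA came from parts of both kidneys of a mouse. Age, strain and body weight differed together, so their parts in any difference between the aged and the young mice cannot be told apart. The comparisons ask what 3 days without food did to the RNA of these genes at each age, and whether the change differed between the ages.

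Splicing removes introns from a new transcript and joins the exons. SR proteins, named for their serine- and arginine-rich tails, bind exons and recruit the splicing machinery, while hnRNP proteins coat nascent RNA and often oppose them. Kinases of the Clk family phosphorylate SR proteins and so release them from nuclear speckles, the stores that also hold the noncoding RNA Malat1. Paraspeckles are neighbouring bodies built on the noncoding RNA Neat1 with the proteins Sfpq, Nono and Pspc1. Many of these genes control their own output by splicing an exon with a stop codon into their transcript or by keeping an intron, so that 1 gene gives several RNAs that probe sets may read apart. Cirbp and Rbm3 encode RNA-binding proteins that are induced by mild cold, and mice without food let their body temperature fall. Body temperature was not analysed here.

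Array medians lay between 3.44 and 3.49 in aged mice and between 4.15 and 4.21 in young mice, so levels were compared only within an age. Arrays of 1 group correlated with the rest of their group at a mean of 0.990 to 0.997. Of 11 kidney markers 8 were measured. Their mean log2 level was 8.49 to 8.74 in aged fasted mice, against 8.83 to 9.11 in aged ad libitum fed mice. It was 8.95 to 9.10 in young fasted mice, against 9.22 to 9.39 in young ad libitum fed mice. At both ages every fasted mouse thus lay below every ad libitum fed mouse. Of the 8 markers, 2 fell in aged and 3 in young kidneys, beside 4.84% and 12.5% of all genes. The mean level of 10 liver markers was 10.04 in aged fasted mouse 33, against 5.60 to 5.94 in the other aged fasted mice. It was 6.77 in ad libitum fed mouse 40 of that age, against 5.35 to 6.48 in the rest of its group. Young fasted mouse 339 had 8.29, against 6.88 to 7.23 in the other young fasted mice. Kidney tissue is a mixture, so fewer cells of a type and less RNA per cell cannot be told apart.

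The promoters of Cirbp and Sfpq are printed because these were the genes whose RNA rose and fell by the largest fold in young kidneys. They are the 250 bases before the transcription start in RefSeq on GRCm38.p6, at chr10:80167589-80167838 on the plus strand for Cirbp and chr4:127021051-127021300 on the plus strand for Sfpq, written 5′ to 3′. For Cirbp, which had several starts, the start farthest upstream was taken. Capitals mark the mild cold response element known from the mouse Cirbp promoter (TCCCCGCC), the GC box (GGGCGG) and the CCAAT box (CCAAT), each on both strands.
Cirbp: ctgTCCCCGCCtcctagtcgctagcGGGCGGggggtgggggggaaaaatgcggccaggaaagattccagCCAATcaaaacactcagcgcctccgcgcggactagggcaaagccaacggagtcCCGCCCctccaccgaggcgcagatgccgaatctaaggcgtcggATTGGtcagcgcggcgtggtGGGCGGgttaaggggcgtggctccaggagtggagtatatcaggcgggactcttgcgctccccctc
Sfpq: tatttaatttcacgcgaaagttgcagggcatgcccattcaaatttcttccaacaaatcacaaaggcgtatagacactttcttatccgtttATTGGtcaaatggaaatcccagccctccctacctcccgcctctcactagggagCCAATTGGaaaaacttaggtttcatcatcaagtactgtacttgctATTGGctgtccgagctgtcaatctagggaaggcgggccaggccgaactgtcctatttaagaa

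In the Sfpq window the capitals are CCAAT boxes only, and a pair of them overlaps in CCAATTGG. The set of RefSeq promoter windows used here covered 32 of the 35 measured genes, with 45 windows in all since 8 genes had several starts. Rbm3, Clk1 and Neat1 had no window in that set. Over windows of 250 bases before and 50 bases after the start, the GC box was in 62.2% of the 45 windows and in 35.7% of all 32851 windows. The CCAAT box was in 53.3% and 37.4%, and the heat shock element core (GAANNTTC) was in 11.1% and 7.86%. The cold element was in 1 of the 45 windows (2.22%), the printed one of Cirbp itself, and in 5.38% of all windows. Cirbp had another start further downstream, and its window (chr10:80167921-80168220) did not hold the element. A GC box can overlap the cold element where a C follows it. These matches describe letters and were not tied to the array values.

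More of these genes passed the test of fasting in young than in aged kidneys, and in both directions. At an adjusted p of at most 0.05 in limma, 11 of the 35 rose and 6 fell in young kidneys (31.4% and 17.1%). Over all genes 10.7% rose and 12.5% fell. With a fold change of at least 1.5 as well, Cirbp alone rose (2.86% of the 35, against 2.95% of all genes) and Srsf6, Hnrnpa2b1 and Sfpq fell (8.57%, against 3.53%). On the mean of their probe sets Srsf6 and Hnrnpa2b1 did not pass in limma (0.01 and −0.03, adjusted p 0.95 and 0.84). In aged kidneys Malat1 and Clk1 rose (5.71%) and no member fell, beside 4.32% of all genes that rose and 4.84% that fell. At an unadjusted p under 0.05 in limma, 10 of the 35 rose and 2 fell in aged kidneys, beside 11.7% and 12% of all genes, and in young kidneys 13 rose and 11 fell, beside 16.2% and 18.2%. The ordinary per-probe-set test of the study's methods gave 2 that rose and 0 that fell in aged kidneys, namely Nono and Luc7l3 in place of Malat1 and Clk1, where 2.82% of all genes rose and 3.74% fell. In young kidneys that test gave 7 that rose and 5 that fell, beside 7.74% and 9.46% of all genes. With the fold minimum Malat1 alone passed in aged kidneys, where 1.39% of all genes rose and 1.28% fell. The median log2 fold change of the 35 was 0.10 in aged and 0.00 in young kidneys, and over all genes it was −0.01 at both ages.

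**Figure D1:**
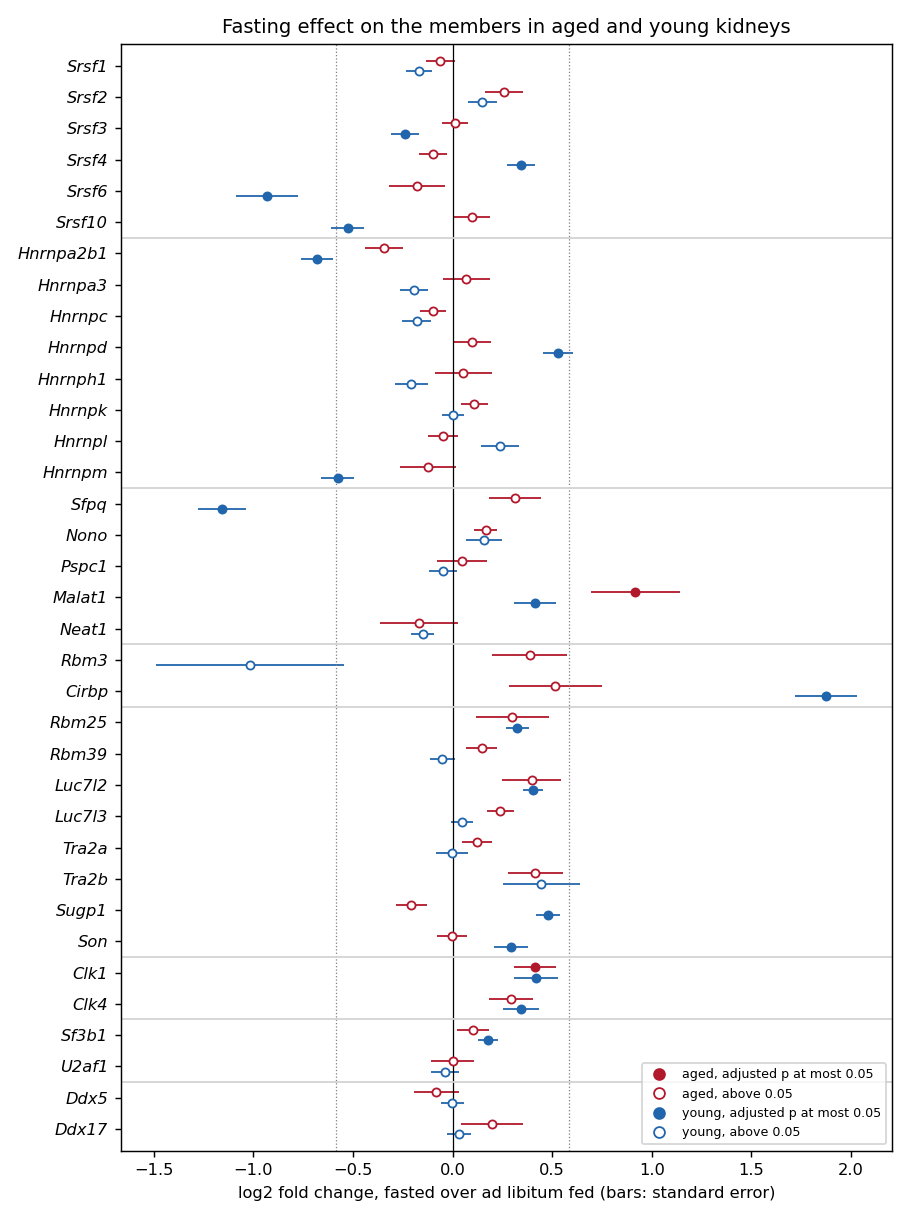
Log2 fold change of each measured gene, fasted over ad libitum fed, with its standard error, in aged (red, 5 against 5 mice) and young kidneys (blue, 4 against 5 mice). Filled points have an adjusted p of at most 0.05 in limma (2 aged, 17 young), and dotted lines mark a fold change of 1.5. Cirbp stands furthest to the right and Sfpq furthest to the left, both in young kidneys.

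Counted by arrays, every young fasted mouse lay above every young ad libitum fed mouse for 10 genes (28.6%, against 9.9% of all genes) and below every one for 7 genes (20%, against 11.4%). In aged kidneys all fasted mice lay above all ad libitum fed mice for 5 genes, namely Srsf2, Nono, Malat1, Luc7l3 and Clk1 (14.3%, against 4.66%). At its brightest probe set no gene of the 35 was lower on every aged fasted array, where 5.52% of all genes were. The 5 members whose fasting effect differed between the ages, at an adjusted p of at most 0.05, were Srsf10 and Sfpq with a positive difference, aged minus young, and Srsf4, Cirbp and Sugp1 with a negative one. These are 5.71% and 8.57% of the 35, beside 1.55% and 0.895% of all genes.

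Of the cold-inducible pair, Cirbp rose in young kidneys and Rbm3 did not pass at either age. Cirbp, an RNA-binding protein that stabilises selected transcripts, had log2 levels of 8.87, 9.15, 8.50 and 8.88 in young fasted mice, against 6.60, 7.06, 6.80, 7.02 and 7.39 in young ad libitum fed mice. The groups lay over 1 log2 unit apart, and the log2 fold change was 1.88 ± 0.16 (SE), a 3.67-fold rise with an adjusted p of 1.4e-05. This rests on 1 probe set, the only single-gene probe set of Cirbp. Cirbp stood at 7.65, 7.59, 8.04, 7.75 and 6.52 in aged fasted mice (mice 33, 38, 39, 41 and 42), against 7.26, 6.94, 6.79, 7.27 and 6.71 in aged ad libitum fed mice. There 4 fasted mice lay above all ad libitum fed mice and mouse 42 lay below them, with a log2 fold change of 0.52 ± 0.23 and an adjusted p of 0.25. Without mouse 42 the aged value was 0.76 ± 0.14 with an adjusted p of 0.0076.

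Between the ages the Cirbp effect differed by −1.36 ± 0.31, with an adjusted p of 0.027. It was −1.11 ± 0.22 without aged fasted mouse 42 (adjusted p 0.014). The adjusted p passed 0.05 without young fasted mouse 340 (0.063) or 344 (0.055), young ad libitum fed mouse 346 (0.053) or aged ad libitum fed mouse 34 (0.0504), and in the ordinary per-probe-set test (0.081). Brown adipocyte transcripts moved with young fasting, and 4 of 9 measured markers rose, beside 10.7% of all genes. Their mean log2 level was 6.64, 5.89, 6.37 and 4.71 in young fasted mice 339, 340, 343 and 344, against 4.65 to 5.06 in young ad libitum fed mice. Mouse 344 lay within the range of the ad libitum fed mice for these markers, and its Cirbp level was 8.88. The part of brown adipocytes in the Cirbp values was not tested.

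Rbm3, the close relative of Cirbp, split the young fasted mice. Its log2 level was 4.43, 4.35, 7.02 and 6.32 in young fasted mice 339, 340, 343 and 344, against 6.37, 6.58, 6.74, 6.45 and 6.60 in young ad libitum fed mice. Mice 339 and 340 lay about 2 log2 units below every ad libitum fed mouse, and mouse 343 lay above them all. The 2 low levels were close to the medians of their arrays (4.18 in both), so the probe set was dim there. The log2 fold change of −1.02 ± 0.47 had an adjusted p of 0.17. Aged fasted mice had Rbm3 levels of 5.83, 6.56, 6.24, 6.45 and 6.58, against 6.31, 6.16, 6.15, 5.33 and 5.77 in aged ad libitum fed mice, so the groups overlapped (0.39 ± 0.19, adjusted p 0.30). For Rbm3 the ages differed by 1.41 ± 0.53 (adjusted p 0.21). Without mouse 343 the young value was −1.52 ± 0.37 (adjusted p 0.018) and the difference between the ages 1.90 (adjusted p 0.022). Rbm3 had 1 single-gene probe set, so no second reading was at hand.

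**Figure D2:**
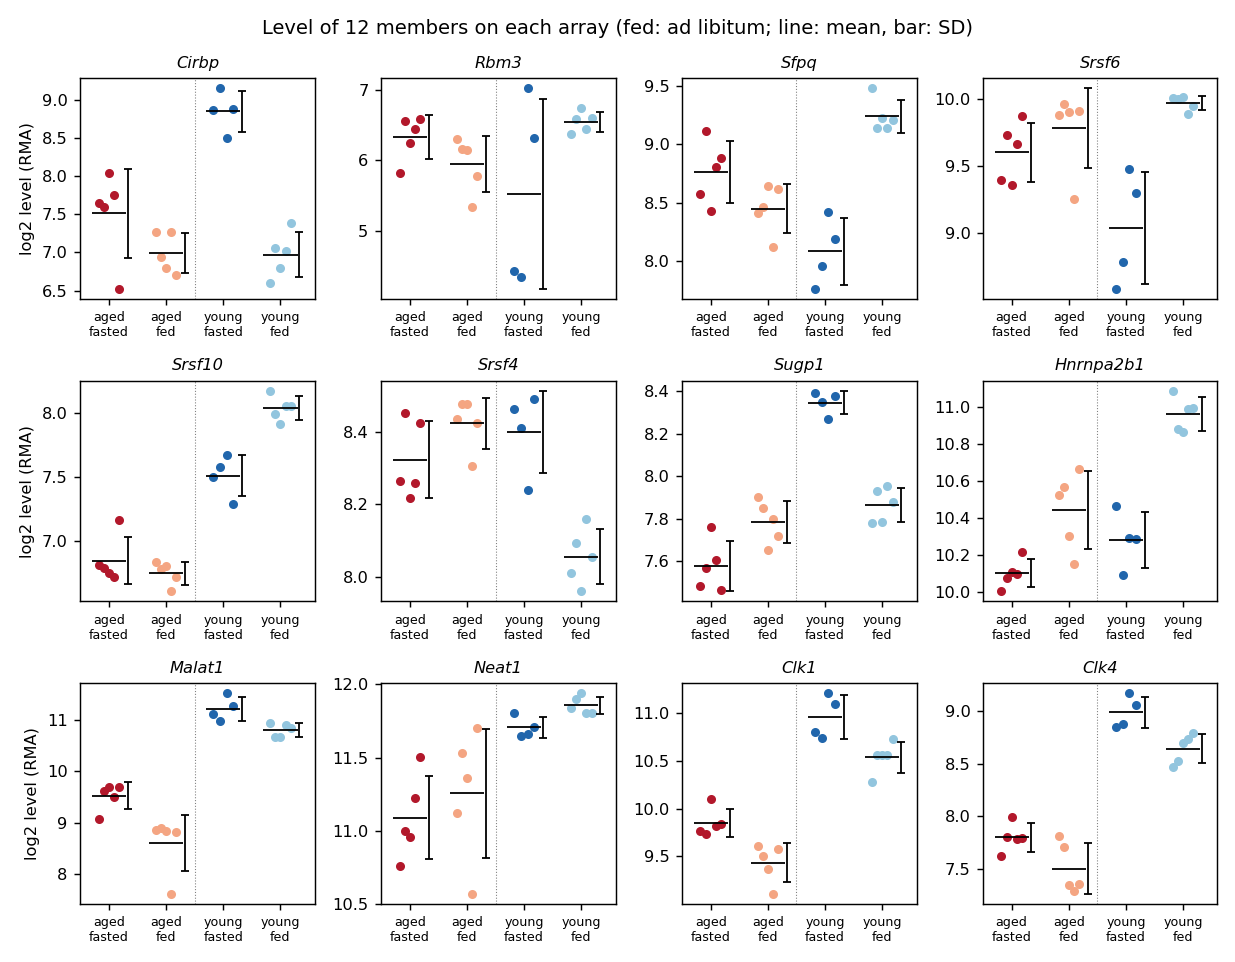
Log2 level of 12 genes on each array (points), with the group mean (line) and SD (bar), for aged fasted, aged ad libitum fed, young fasted and young ad libitum fed mice (5, 5, 4 and 5 arrays). The young fasted points of Cirbp lie above and those of Sfpq below all young ad libitum fed points, and those of Rbm3 fall into a pair at 4.35 and 4.43 and a pair at 6.32 and 7.02.

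Of the paraspeckle and nuclear RNA genes, Sfpq fell in young kidneys and Malat1 rose at both ages. Sfpq, a DNA- and RNA-binding protein of paraspeckles, had levels of 7.76, 7.96, 8.42 and 8.19 in young fasted mice, against 9.48, 9.14, 9.23, 9.14 and 9.21 in young ad libitum fed mice. The groups were clear of each other, and the log2 fold change was −1.16 ± 0.12, a 2.23-fold fall with an adjusted p of 6.8e-05. In aged kidneys it was 8.58, 9.12, 8.43, 8.80 and 8.89 in fasted mice, against 8.41, 8.46, 8.64, 8.12 and 8.62 in ad libitum fed mice. The aged groups overlapped (0.31 ± 0.13, adjusted p 0.22), and the difference between the ages was 1.47 ± 0.19 with an adjusted p of 0.00043.

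The dimmest of the 3 probe sets of Sfpq moved like the brightest, with a young log2 fold change of −1.42 ± 0.14 and a difference between the ages of 1.35 ± 0.17 (adjusted p 4.8e-05 and 0.00027). The remaining one rose in young kidneys by 0.34 ± 0.09 (adjusted p 0.021). On it the young fasted mice had levels of 7.04, 7.06, 7.51 and 7.27, against 6.86, 6.79, 6.91, 6.94 and 6.88 in young ad libitum fed mice, so all fasted mice were above all ad libitum fed mice where the other probe sets had them below. On that probe set the ages differed by −0.03 ± 0.22. The mean of the 3 probe sets still fell in young kidneys (−0.74 ± 0.09, adjusted p 0.00011), and the ages differed on it by 0.93 ± 0.15 (adjusted p 0.0017).

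Malat1, the noncoding RNA of nuclear speckles, had levels of 9.08, 9.62, 9.70, 9.51 and 9.70 in aged fasted mice, against 8.86, 8.89, 8.84, 7.62 and 8.82 in aged ad libitum fed mice. No arrays overlapped, though mouse 40, at 7.62, lay over 1 log2 unit below the other ad libitum fed mice. The log2 fold change was 0.92 ± 0.22 (1.89-fold, adjusted p 0.029), and 0.67 ± 0.12 without mouse 40 (adjusted p 0.0052). The adjusted p passed 0.05 without aged fasted mouse 38, 39, 41 or 42 (0.065 to 0.071), in the ordinary per-probe-set test (0.12) and with robust fitting (0.072). In young kidneys Malat1 had levels of 11.11, 10.98, 11.51 and 11.27 in fasted mice, against 10.95, 10.66, 10.67, 10.90 and 10.84 in ad libitum fed mice. It rose by 0.41 ± 0.11 (adjusted p 0.018), a call that the ordinary per-probe-set test and the fit of all 19 arrays did not make. The ages differed by 0.50 ± 0.28 for Malat1 (adjusted p 0.46). Another 4 probe sets name Malat1 together with Ramp2 and were not used.

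Neat1, the scaffold RNA of paraspeckles, had levels of 10.76, 11.00, 10.96, 11.23 and 11.50 in aged fasted mice, against 11.12, 11.53, 11.36, 10.57 and 11.71 in aged ad libitum fed mice. Its young levels were 11.81, 11.65, 11.66 and 11.71 in fasted mice, against 11.84, 11.90, 11.94, 11.81 and 11.81 in ad libitum fed mice. The groups overlapped or touched at both ages, with log2 fold changes of −0.17 ± 0.20 and −0.15 ± 0.06 (adjusted p 0.73 and 0.099). Nono, the partner of Sfpq in paraspeckles, was at 9.88 to 10.00 in aged fasted mice, against 9.70 to 9.83 in aged ad libitum fed mice, without overlap (0.17 ± 0.06, adjusted p 0.13), and its young value was 0.16 ± 0.09 (adjusted p 0.29). Pspc1, the third protein of that family, had values of 0.05 ± 0.12 in aged and −0.05 ± 0.07 in young kidneys.

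The SR proteins held 3 genes that fell and 1 that rose in young kidneys, of 6 measured, beside 12.5% and 10.7% of all genes. Srsf6 had levels of 8.59, 8.79, 9.48 and 9.30 in young fasted mice, against 10.00, 10.00, 10.01, 9.89 and 9.95 in young ad libitum fed mice. The ad libitum fed mice lay within a narrow band, all fasted mice lay below it, and the log2 fold change was −0.93 ± 0.15 (1.91-fold lower, adjusted p 0.0014). Aged fasted mice had Srsf6 levels of 9.39, 9.73, 9.36, 9.66 and 9.87, against 9.88, 9.96, 9.90, 9.26 and 9.91 in aged ad libitum fed mice. There only mouse 40 of the ad libitum fed mice lay below the fasted range (−0.18 ± 0.14, adjusted p 0.57). Between the ages it differed by 0.75 ± 0.22 (adjusted p 0.088), and by 0.90 without young fasted mouse 343 (adjusted p 0.029).

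The fall of Srsf6 was seen on its brightest probe set, and the other 3 probe sets rose in young kidneys. The second in brightness had levels of 9.80, 9.83, 9.72 and 9.97 in young fasted mice, against 9.34, 9.39, 9.44, 9.57 and 9.48 in young ad libitum fed mice. Fasted mice were above all ad libitum fed mice on it, with a log2 fold change of 0.39 ± 0.07 (adjusted p 0.0024). The remaining 2 rose by 0.25 ± 0.07 and 0.33 ± 0.06 (adjusted p 0.027 and 0.0027). The mean of the 4 probe sets was level, at 0.01 ± 0.06 (adjusted p 0.95), so the call for Srsf6 belongs to a probe set and not to the gene as a whole.

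Srsf10, which turns into a splicing repressor when it loses its phosphates, had levels of 7.50, 7.58, 7.67 and 7.29 in young fasted mice, against 8.17, 7.99, 7.92, 8.05 and 8.05 in young ad libitum fed mice. The groups were clear of each other (−0.53 ± 0.08, adjusted p 0.00095). In aged kidneys it was 6.82, 6.79, 6.75, 6.72 and 7.17 in fasted mice, against 6.84, 6.78, 6.81, 6.61 and 6.72 in ad libitum fed mice. Those groups overlapped (0.10 ± 0.09, adjusted p 0.64), and the difference between the ages was 0.62 ± 0.12 with an adjusted p of 0.012. Averaged over the 4 probe sets of Srsf10 that difference was 0.31 (adjusted p 0.086), and the young value was −0.27 ± 0.06 (adjusted p 0.0052).

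Srsf4 went the other way. It had levels of 8.46, 8.41, 8.24 and 8.49 in young fasted mice, against 8.01, 8.09, 7.96, 8.16 and 8.05 in young ad libitum fed mice. All fasted mice were above all ad libitum fed mice (0.34 ± 0.07, adjusted p 0.0043). Aged levels were 8.26, 8.45, 8.22, 8.26 and 8.42 in fasted mice, against 8.44, 8.47, 8.47, 8.30 and 8.42 in ad libitum fed mice, which overlapped (−0.10 ± 0.07, adjusted p 0.51). Aged and young fold changes of Srsf4 differed by −0.44 ± 0.10 (adjusted p 0.019). Without young fasted mouse 344 its adjusted p was 0.0504. Srsf4 had a single probe set.

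Srsf3, the shortest SR protein, fell in young kidneys by 0.24 on the log2 scale at its brightest probe set (SE 0.07, adjusted p 0.031), where the groups met at a level of 9.92. That call was lost in the ordinary per-probe-set test (0.055) and without any of young fasted mice 339, 340 and 344 or young ad libitum fed mice 347, 348 and 350 (0.052 to 0.088). Its 4 next probe sets fell further, by 0.44 to 1.06 (adjusted p 3.4e-05 to 0.0011), and the dimmest had a value of 0.27 ± 0.12 (adjusted p 0.16). The mean of the 6 probe sets fell by 0.52 (SE 0.08, adjusted p 0.00043). On 2 of the 4 that fell further the ages differed, by 0.69 ± 0.15 and 0.65 ± 0.17 (adjusted p 0.024 and 0.047). Aged values of the 6 probe sets ran between −0.41 and 0.09, and none passed. The 4 that fell further in young kidneys had aged values of −0.41 to −0.14. On the probe set at −0.41 ± 0.12 (adjusted p 0.062), aged fasted mice had 5.87 to 6.03. Aged ad libitum fed mice had 6.08 to 6.79 on it, without overlap. Srsf1 and Srsf2, which both bind exonic enhancers, did not pass at their brightest probe sets in young kidneys (−0.17 ± 0.06, adjusted p 0.093, and 0.15 ± 0.07, adjusted p 0.21). The other 3 probe sets of Srsf1 all passed there, 2 down (−0.24 ± 0.07 and −0.30 ± 0.06) and 1 up (0.37 ± 0.11). Srsf2 was at 9.74 to 9.92 in aged fasted mice, against 9.20 to 9.70 in aged ad libitum fed mice, without overlap (0.26 ± 0.09, adjusted p 0.15).

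Among 8 measured hnRNP proteins, Hnrnpa2b1 and Hnrnpm fell and Hnrnpd rose in young kidneys, where 12.5% of all genes fell and 10.7% rose. None passed in aged kidneys in limma or the ordinary test (0 up and 1 down at an unadjusted p under 0.05). Hnrnpa2b1, which also sorts RNAs for transport, had levels of 10.46, 10.09, 10.29 and 10.29 in young fasted mice, against 11.09, 10.88, 10.87, 10.99 and 11.00 in young ad libitum fed mice. The groups were clear of each other (−0.68 ± 0.08, 1.60-fold lower, adjusted p 0.00014). In aged kidneys Hnrnpa2b1 was at 10.00, 10.08, 10.11, 10.10 and 10.21 in fasted mice, against 10.53, 10.57, 10.31, 10.15 and 10.67 in ad libitum fed mice. Again mouse 40, at 10.15, was the ad libitum fed mouse that reached into the fasted range. The aged value was −0.34 ± 0.10 with an adjusted p of 0.052, and −0.42 ± 0.08 with an adjusted p of 0.0099 without mouse 40. It also passed with quantile normalization, array quality weights, robust fitting, the fit of all arrays or the dimmest probe sets left out (0.015 to 0.043). Its other probe sets did not pass in aged kidneys, with values of 0.01, −0.14 and 0.41 (adjusted p 0.97, 0.64 and 0.16). On the mean of its probe sets the aged value was −0.01 (adjusted p 0.97).

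The other 3 probe sets of Hnrnpa2b1 gave young values of 0.19 ± 0.10, 0.01 ± 0.10 and 0.35 ± 0.12 (adjusted p 0.22, 0.95 and 0.064), so the fall stood on the brightest one alone. The mean of the 4 probe sets had a young value of −0.03 (adjusted p 0.84). Hnrnpm, which binds GU-rich RNA and had 1 probe set, was at 8.49 to 8.72 in young fasted mice, against 8.94 to 9.34 in young ad libitum fed mice (−0.58 ± 0.08, adjusted p 0.00058). Hnrnpd, a factor in the decay of AU-rich mRNAs, was at 9.55 to 9.80 in young fasted mice, against 9.06 to 9.32 in young ad libitum fed mice (0.53 ± 0.08, adjusted p 0.00052). On the mean of its 3 probe sets the rise of Hnrnpd was 0.20 ± 0.05 (adjusted p 0.0078). Hnrnpm and Hnrnpd were clear of overlap, and their aged values were −0.12 ± 0.14 and 0.10 ± 0.09. For these 3 genes the difference between the ages had adjusted p values of 0.078 for Hnrnpd, 0.22 for Hnrnpa2b1 and 0.23 for Hnrnpm, and that of Hnrnpd was 0.018 without aged fasted mouse 39.

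The other hnRNP genes did not pass at their brightest probe sets at either age. In young kidneys Hnrnpa3 was at −0.19 ± 0.07 (adjusted p 0.079), with all fasted mice below all ad libitum fed mice, and Hnrnpc, which shields cryptic exons from the splicing machinery, was at −0.18 ± 0.07 (adjusted p 0.11). Hnrnph1, a binder of G-runs, stood at −0.21 ± 0.08 (adjusted p 0.11), Hnrnpl, a binder of CA repeats, at 0.24 ± 0.10 (adjusted p 0.11) and Hnrnpk, a binder of C-rich RNA, at 0.00 ± 0.06 (adjusted p 0.99). Hnrnpa3 passed downwards without young fasted mouse 339 (adjusted p 0.031) and Hnrnph1 without young fasted mouse 344 (0.039). Their aged values ran from −0.10 to 0.11. Second probe sets passed downwards in young kidneys for Hnrnpa3 (−0.28 ± 0.06), Hnrnpc (−0.34 ± 0.07) and Hnrnpk (−0.23 ± 0.05), and another of Hnrnpa3 passed upwards (0.42 ± 0.07).

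The SR-related proteins and splicing regulators held 4 genes that rose and none that fell in young kidneys, of 8 measured (none fell at an unadjusted p under 0.05 or in the ordinary test either). Over all genes 10.7% rose and 12.5% fell there. Sugp1, which joins Sf3b1 at the branch site, had levels of 8.39, 8.35, 8.27 and 8.38 in young fasted mice, against 7.78, 7.93, 7.79, 7.95 and 7.88 in young ad libitum fed mice. Its groups were tight and far apart (0.48 ± 0.06, adjusted p 0.00021). In aged kidneys it was at 7.48, 7.57, 7.76, 7.61 and 7.47 in fasted mice, against 7.90, 7.85, 7.66, 7.80 and 7.72 in ad libitum fed mice, where it lay lower in fasted mice with some overlap (−0.21 ± 0.08, adjusted p 0.15). The ages differed by −0.69 ± 0.10 for Sugp1, with an adjusted p of 0.00074 that stayed below 0.05 without each array in turn (0.00029 to 0.0027). Sugp1 had a single probe set.

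Luc7l2 and Rbm25 rose in young kidneys. Luc7l2, which works with the snRNP that reads the start of introns, was at 9.69 to 9.77 in young fasted mice, against 9.26 to 9.36 in young ad libitum fed mice (0.40 ± 0.05, adjusted p 0.00026). All of its 7 probe sets had positive values at both ages. Rbm25 was at 9.61 to 9.73 in young fasted mice, against 9.26 to 9.45 in young ad libitum fed mice (0.33 ± 0.06, adjusted p 0.0022, and 0.18 in the fit of all arrays), and the mean of its probe sets rose by 0.21 ± 0.07 (adjusted p 0.044). Aged values were 0.40 ± 0.15 for Luc7l2 and 0.30 ± 0.18 for Rbm25, with adjusted p values of 0.15 and 0.43 in the wider aged groups. Son, a scaffold protein of nuclear speckles, rose in young kidneys by 0.29 ± 0.08 (adjusted p 0.031), with levels of 10.55 to 10.86 in fasted mice, against 10.19 to 10.55 in ad libitum fed mice. The call was lost without young fasted mouse 340, 343 or 344 or young ad libitum fed mouse 346 or 348 (0.055 to 0.093), in the ordinary test (0.078) and on the mean of its 6 probe sets, where the value was 0.13 (0.16). Its aged value was 0.00 ± 0.07.

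Rbm39, a relative of the U2AF splice site factor, did not pass at its brightest probe set (−0.05 ± 0.06, adjusted p 0.66), whereas 6 of its other 8 probe sets rose in young kidneys, by 0.31 to 0.65. The mean over its 9 probe sets rose by 0.36 ± 0.06 (adjusted p 0.00075). Luc7l3 was at 9.14 to 9.36 in aged fasted mice, against 8.89 to 9.10 in aged ad libitum fed mice, without overlap (0.24 ± 0.07, adjusted p 0.057, and 0.0095 in the fit of all arrays), and its second probe set rose in aged kidneys (0.33 ± 0.09, adjusted p 0.048). Tra2b, which binds GAA-rich enhancers, had values of 0.42 ± 0.14 in aged and 0.44 ± 0.19 in young kidneys (adjusted p 0.10 and 0.14). Without aged fasted mouse 33, which was high in liver markers, its aged value was 0.55 ± 0.10 with an adjusted p of 0.0054, and without young ad libitum fed mouse 349 its young value was 0.57 with an adjusted p of 0.048. Tra2a was dim, at 2.15 to 3.42 on all arrays, with values of 0.12 ± 0.08 and 0.00 ± 0.08.

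Of the SR protein kinases, Clk1 rose at both ages and Clk4 rose in young kidneys. Clk1 had levels of 9.76, 9.73, 10.10, 9.82 and 9.84 in aged fasted mice, against 9.61, 9.51, 9.37, 9.11 and 9.58 in aged ad libitum fed mice. No arrays overlapped (0.41 ± 0.10, 1.33-fold, adjusted p 0.034). Its young levels were 10.80, 10.73, 11.20 and 11.09 in fasted mice, against 10.28, 10.56, 10.56, 10.55 and 10.72 in ad libitum fed mice, just clear of each other (0.42 ± 0.11, adjusted p 0.020). The ages differed by −0.01 ± 0.16 for Clk1 (adjusted p 0.99). Clk1 had a single probe set. The aged call was lost without aged fasted mouse 39, 41 or 42 or aged ad libitum fed mouse 36 or 37 (adjusted p 0.054 to 0.081), and the ordinary per-probe-set test made neither call.

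Clk4 had levels of 7.62, 7.81, 8.00, 7.78 and 7.79 in aged fasted mice, against 7.82, 7.71, 7.35, 7.30 and 7.35 in aged ad libitum fed mice. Those overlapped (0.29 ± 0.11, adjusted p 0.16). Young fasted mice had 8.85, 8.88, 9.17 and 9.05, against 8.47, 8.53, 8.69, 8.74 and 8.80 in young ad libitum fed mice, without overlap (0.34 ± 0.09, adjusted p 0.019). The young calls of both kinases were lost without young fasted mouse 343 or 344 (adjusted p 0.055 to 0.061), and the ordinary test did not call Clk4 (0.062). Clk4 differed between the ages by −0.05 ± 0.15 (adjusted p 0.94).

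The core factors moved little. Sf3b1, the branch-site protein, was at 10.73 to 10.81 in young fasted mice, against 10.53 to 10.65 in young ad libitum fed mice (0.18 ± 0.05, adjusted p 0.034), while its dimmest probe set fell (−0.24 ± 0.07, adjusted p 0.024). The rise of Sf3b1 was a thin call, with an adjusted p of 0.051 to 0.085 without any 1 of the arrays but that of young ad libitum fed mouse 350, 0.070 after median centring and 0.56 for the mean of its probe sets. U2af1, which reads the end of introns, had values of 0.00 ± 0.11 in aged and −0.04 ± 0.07 in young kidneys. The DEAD-box helicases Ddx5 and Ddx17, which unwind RNA and also act as coregulators of transcription, had values of −0.08 ± 0.11 and 0.20 ± 0.16 in aged and 0.00 ± 0.06 and 0.03 ± 0.06 in young kidneys. None of the last 3 genes passed at either age.

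Probe sets of 1 gene often went apart in young kidneys. Of the 23 genes with several probe sets, 5 (Srsf1, Srsf6, Hnrnpa3, Sfpq and Sf3b1) had a probe set that rose and another that fell, which is 21.7%, against 1.64% of 7180 genes with several probe sets. Over genes with 3 or more probe sets it was 5 of 16 (31.2%), against 3.17% of 2905 genes. In the ordinary per-probe-set test 3 of the 23 genes did so, against 0.864% of all such genes. In aged kidneys 0 of the 23 genes did so in limma or in the ordinary test, beside 0.0557% of all such genes in either, and 1 did at an unadjusted p under 0.05, beside 1.11%. Of the 23 genes, 6 had young values of 1 sign on all their probe sets, with signs counted whatever the adjusted p. The share over all genes with several probe sets was not analysed for this count. The share of probe sets that cross-hybridise, and where each lies in its transcript, was not analysed here.

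**Figure D3:**
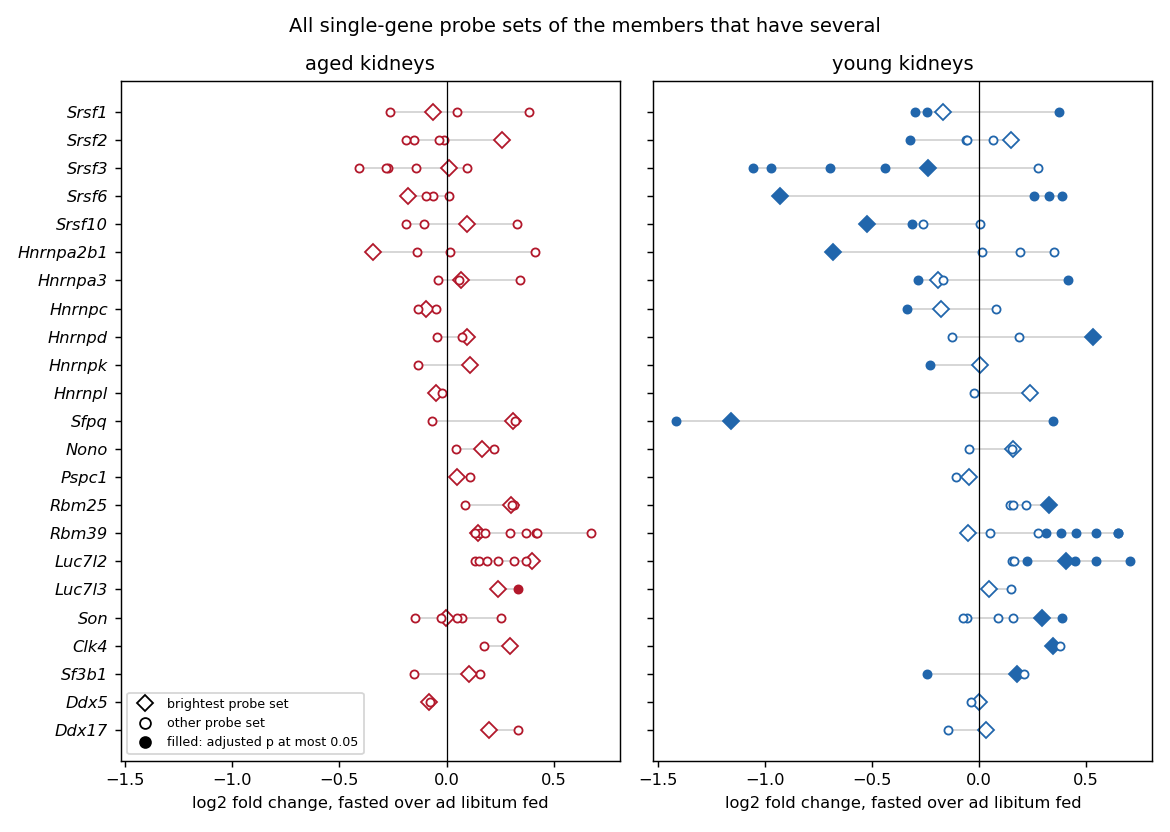
Log2 fold change of every single-gene probe set of the 23 genes that have several, fasted over ad libitum fed, in aged (left) and young kidneys (right). Diamonds mark the brightest probe set, circles the others, and filled symbols an adjusted p of at most 0.05 in limma. In young kidneys filled symbols lie on both sides of 0 for Srsf1, Srsf6, Hnrnpa3, Sfpq and Sf3b1.

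Single arrays also stood out over many of these genes, a pattern picked after the values were seen. Mouse 40 was the lowest of the 5 aged ad libitum fed mice in 26 of the 35 genes (74.3%), in 43.5% of 131 other splicing genes and in 21.2% of all genes. This mouse also had the highest liver marker level of its group, 6.77, and its macrophage marker level of 6.13 was above the 5.52 to 5.63 of the others. Aged fasted mouse 33, with a liver marker level of 10.04, was the lowest of its group in 15 of the 35 genes (42.9%) and in 21% of all genes. Among young fasted mice, 339 and 340 were both below 343 and 344 in 15 of the 35 genes (42.9%), in 19.8% of the other splicing genes and in 14.1% of all genes. The 15 include Rbm3, Sfpq, Srsf6, Tra2b, Malat1, Clk1 and Clk4. Other pairs of these mice were the lower ones in 2.86% to 22.9% of the 35 genes. In the other splicing genes those pairs had 5.34% to 21.4%, so 339 and 340 did not stand out there. Over all genes they had 13.4% to 18.8%.

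**Figure D4:**
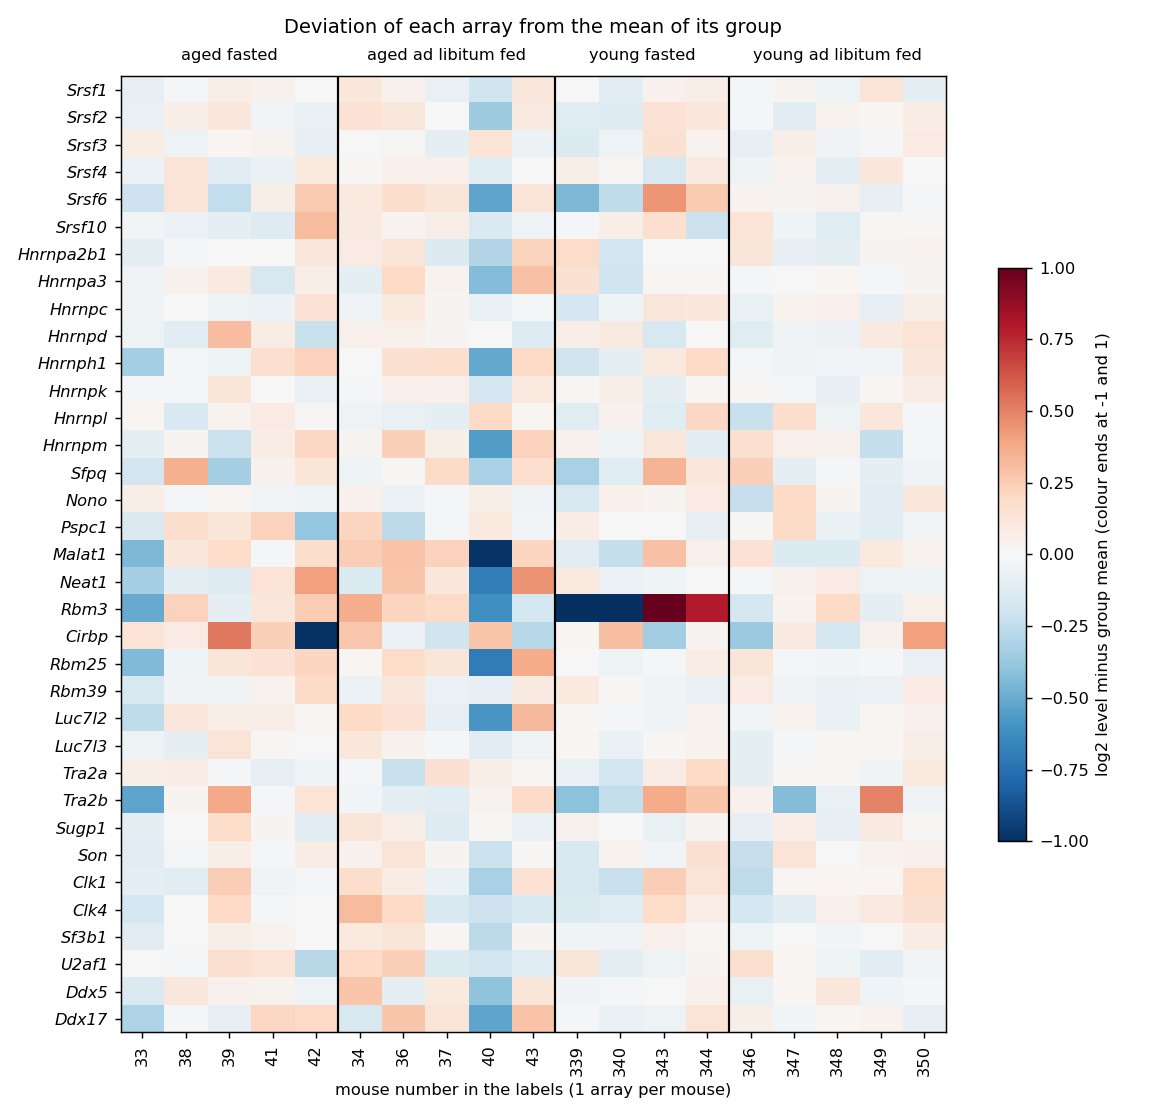
Log2 level of each gene on each array minus the mean of its group, by mouse number, for aged fasted, aged ad libitum fed, young fasted and young ad libitum fed mice. Blue cells lie below and red cells above the group mean, with colours ending at −1 and 1, and the column of aged ad libitum fed mouse 40 is blue for most genes.

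Without mouse 40 the aged comparison called 3 members, with Hnrnpa2b1 added to Malat1 and Clk1, and without mouse 33 it called 3, with Tra2b added. Macrophage markers moved with young fasting, and 6 of 10 fell, beside 12.5% of all genes. Their mean level was 5.59 to 5.82 in young fasted mice, against 6.05 to 6.39 in young ad libitum fed mice. Of these markers 1 of 10 fell in aged kidneys, beside 4.84% of all genes. Of 10 liver markers, 3 rose and 1 fell in young kidneys, beside 10.7% and 12.5% of all genes. None of the 10 passed in aged kidneys by either test, where 4.32% of all genes rose and 4.84% fell in limma. At an unadjusted p under 0.05 in limma, 2 of them rose and 1 fell in aged kidneys, beside 11.7% and 12% of all genes. The part of these cells and tissues in the values of the splicing genes was not tested.

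Related genes, taken from lists that were written with earlier results of these data known, moved in both directions too. Of 51 other SR-related proteins and splicing regulators, 15 rose and 9 fell in young kidneys and 1 rose and 2 fell in aged kidneys. Over all genes 10.7% rose and 12.5% fell in young kidneys, and 4.32% rose and 4.84% fell in aged kidneys. Those that rose in young kidneys included Rbm33 (0.58), Luc7l (0.58), Pnisr (0.44) and Fubp1 (0.49). Those that fell included Rbm28 (−0.54), Tardbp (−0.79), Elavl1 (−0.79) and Khdrbs3 (−0.71). In aged kidneys Khdrbs3 (−0.44) and Rbm4 (−0.44) fell and Luc7l (0.25) rose. The ages differed for Tardbp, which encodes the RNA-binding protein TDP-43 (0.92 ± 0.18, adjusted p 0.012), and for Rbm33 (−0.68 ± 0.11, adjusted p 0.0020).

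Of 19 other SR and hnRNP proteins, 4 rose and 4 fell in young kidneys, beside 10.7% and 12.5% of all genes. In aged kidneys Pcbp2 (0.30), Hnrnpdl (0.32) and Rbmx (0.58) rose and none fell, beside 4.32% and 4.84% of all genes. Hnrnpdl and Pcbp2 rose in young kidneys as well (0.47 and 0.29). Among 6 other kinases of SR proteins, Srpk1, which acts on them in the cytoplasm, fell at both ages (−0.50 ± 0.07 in aged and −0.48 ± 0.06 in young kidneys, adjusted p 0.00081 and 0.00030). Clk3 (0.32), Prpf4b (0.29) and Dyrk1a (0.36) rose in young kidneys, where 10.7% of all genes rose. Of 55 other core spliceosome genes, 3 rose and 4 fell in young kidneys, where 10.7% of all genes rose and 12.5% fell. Lsm4 fell at both ages (−0.48 and −0.32). In the 9 measured genes of the exon junction complex and nonsense-mediated decay, Smg5 alone fell, in young kidneys (−0.27), and none passed in aged kidneys by either test (1 up and 1 down at an unadjusted p under 0.05).

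Heat shock genes, which encode chaperones, fell in young kidneys in 6 of 12 cases and rose in 2. Over all genes 12.5% fell and 10.7% rose there. The falls were led by Dnaja1 (−0.96), Hsp90aa1 (−0.69), Hsph1 (−0.60) and Dnajb1 (−0.59), while Bag3 (0.43) and Hspa4 (0.26) rose. In aged kidneys none passed in limma or the ordinary test (0 up and 1 down at an unadjusted p under 0.05). The ages differed for Dnaja1, a co-chaperone (0.66 ± 0.17, adjusted p 0.043).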

How the data were processed

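Kidney RNA of 19 mice was measured on the Affymetrix HT MG-430 PM array, with 1 array for each mouse. RMA normalization through an online pipeline (version not given in the sources used here) was done by the authors, who deposited log2 values for 45141 probe sets (1.84 to 13.7). Array medians differ by age, so the arrays may have been normalized apart for each age. Replicates are separate mice, the number of arrays limits the precision, and no columns of other samples were present.

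The deposited log2 values were tested with limma 3.58.1 in R 4.3.3. Fasted minus ad libitum fed was fitted within each age, and the difference between the ages came from 1 fit with a mean for each of the 4 groups. Adjustment was by Benjamini-Hochberg over all probe sets. A gene is said to have risen or fallen where its adjusted p was 0.05 or less. Where stated, its fold change also had to reach 1.5. The study's methods name analysis of variance, here the ordinary per-probe-set test, which was run as an alternative. Errors beside log2 fold changes are SE. The annotation gave 1 gene for 28898 probe sets, several for 551, and did not list 15692. A probe set of Srsf2 that also names Mettl23 was not used.

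The members and lists were chosen with earlier results of these data known. Every member is named. Values on every array are given for members past both thresholds at either age, for members with a passing difference between the ages, and for Rbm3, Cirbp, Malat1, Neat1, Clk1 and Clk4. Of each list of other genes, at most 4 in each direction and age are named. The scripts were tested on simulated data.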

Additional observations from a re-analysis of the deposited data

Results flagged for a closer look

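A single array stood far from the rest of its group in 12 of 140 combinations of gene and group. There the gap to the nearest array was a large share of the range of the group (Dixon's test). The limit of that test is set at about 1 in 20 for normal values. The 140 combinations share arrays and are not independent, and the share over all genes was not analysed, so the count was not compared with chance. Aged ad libitum fed mouse 40 was low for 5 of the 12. It had log2 levels of 9.26 for Srsf6, against 9.88 to 9.96 in the other 4 mice, 9.44 for Hnrnph1 (9.95 to 10.15), 7.08 for Hnrnpm (7.66 to 7.88), 7.62 for Malat1 (8.82 to 8.89) and 9.31 for Sf3b1 (9.59 to 9.69). The other 7 were spread over different mice. Among aged fasted mice Srsf10 was high in mouse 42 (7.17), Hnrnpl low in mouse 38 (8.17), Luc7l2 low in mouse 33 (8.44) and Clk1 high in mouse 39 (10.10). Hnrnpd was low in aged ad libitum fed mouse 43 (8.73), Hnrnph1 high in young ad libitum fed mouse 350 (11.23) and Sfpq high in young ad libitum fed mouse 346 (9.48).

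The fasting effect differed between aged and young kidneys, by the limma test of the difference itself, for 5 genes. The difference in log2 fold change, aged minus young, was 1.47 for Sfpq and 0.62 for Srsf10, and −1.36 for Cirbp, −0.69 for Sugp1 and −0.44 for Srsf4. Age, strain and weight cannot be told apart in these differences.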

How the results depend on the processing

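The young comparison called 17 members and kept within 1.5 times that count in all settings but a fold change of at least 1.5 (4), and leaving out single arrays gave 13 to 17. The aged comparison called 2 members, 4 with quantile normalization, 5 with array quality weights, 5 in the fit of all arrays and 1 with the fold minimum. Leaving out single arrays gave 0 to 3 there, with 0 without aged fasted mouse 39 or 41. The difference between the ages called 5 members, 2 with the adjusted p limit at 0.01, and 3 to 7 without single arrays, with 3 without young fasted mouse 344. Young fold changes changed sign on other probe sets for Srsf1 (0.37), Srsf2 (−0.32), Srsf3 (0.27), Srsf6 (0.33, 0.39 and 0.25), Srsf10 (0.0031), Hnrnpa2b1 (0.19, 0.35 and 0.014), Hnrnpa3 (0.42), Hnrnpd (−0.13), Hnrnpk (−0.23), Sfpq (0.34), Rbm39 (0.38, 0.54, 0.31, 0.65, 0.65 and 0.45), Son (−0.078 and −0.055) and Sf3b1 (−0.24), and on the mean of the probe sets for Srsf6 (0.0087) and Rbm39 (0.36). The difference between the ages changed sign on another probe set of Sfpq (−0.026). The cause of these changes was not tested. The paper describes matching of mice in pairs by body weight and sex before they were assigned to a diet. The labels do not give such pairs, so no paired analysis was possible.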
